A study of Danio rerio with 26 samples.

Results

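Zebrafish embryos injected with an upf1 morpholino were compared with embryos that were not injected, both at 12 h post-fertilization (hpf). These are 4 of the 26 libraries of the series, 2 of upf1 morphants (labelled UPF1-MO) and 2 of controls (labelled CONTROL), and all 28441 genes of their table entered the description. The morpholino is an antisense oligonucleotide that blocks splicing of the upf1 pre-mRNA and was injected into wild-type embryos after fertilization. Each library was made from poly(A) RNA of a pool of whole embryos. The controls received no injection of any kind, so the effects of the injection and of the loss of Upf1 cannot be told apart. Nothing in the labels says whether the replicates came from separate clutches, and p-values measure the spread between these libraries, which may in part be technical.

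Upf1 is the RNA helicase at the center of nonsense-mediated mRNA decay (NMD), which degrades mRNAs whose translation ends at a stop codon in an unfavorable context, for example upstream of an exon junction. The exon junction complex (EJC), whose core holds Eif4a3, Rbm8a and Magoh, marks such junctions, and the Smg proteins phosphorylate Upf1 and cut or hand on the mRNA. NMD also sets the level of many normal mRNAs, among them transcripts of stress and growth arrest genes. In zebrafish, loss of NMD is followed by death of neural cells later in development, and the study sampled embryos before that time.

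The recovered depth was 93157779 and 91551783 reads in morphant replicates 1 and 2, and 73345144 and 81602044 reads in control replicates 1 and 2. Levels are given as FPKM, the fragments per kilobase of exon, scaled by a factor that DESeq2 fitted to each library rather than by its total reads. Of the genes measured, 17057 reached 0.5 FPKM in 2 or more libraries and were tested. Across these genes the log2(FPKM + 1) values had a Pearson's r of 0.997 between the morphant libraries, 0.997 between the control libraries and 0.989 to 0.990 between a morphant and a control library (r across genes, which are not independent replicates). A gene is said here to have passed where its p from limma, adjusted by the Benjamini-Hochberg method, was under 0.05. It is said to be called where it also changed by 1.5-fold or more on the log2(FPKM + 1) scale. A value given alone in parentheses after a gene is its log2 fold change, morphants over controls, on that scale. Every mention of 1.5-fold refers to that scale, and rises and falls are ranked on it. Any other value ending in -fold is the ratio of the mean FPKM. A low gene can thus differ widely in mean FPKM without being called, as atf3 did (2.01-fold).

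In upf1 morphants, 191 genes were called higher (1.12% of those tested) and 202 were called lower (1.18%), together 393 genes (2.30%). Without the fold threshold, 1907 genes passed as higher (11.2%) and 2175 as lower (12.8%), together 4082 (23.9%). The rises reached further than the falls, with log2 fold changes of up to 3.40 and down to -1.76. Among the genes called higher, 121 had a mean FPKM at least 2 times that of controls and 57 at least 4 times. Among the genes called lower, 96 had a mean of 0.5 times that of controls or less. The median log2 fold change of all tested genes was 0.00, a value that the scaling between libraries largely sets. Morphant and control libraries did not overlap in 66.3% of all tested genes, so an absence of overlap alone says little of a single gene. Among the genes called, 32 of those higher reached the tested level through the morphant libraries alone and 10 of those lower through the control libraries alone, so these had to differ in that direction to be tested at all. Genes called higher had a median exon length of 1640 bases and a median level of 3.91 FPKM, genes called lower 2120 bases and 4.71 FPKM, and all tested genes 2190 bases and 5.16 FPKM.

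**Figure D1:**
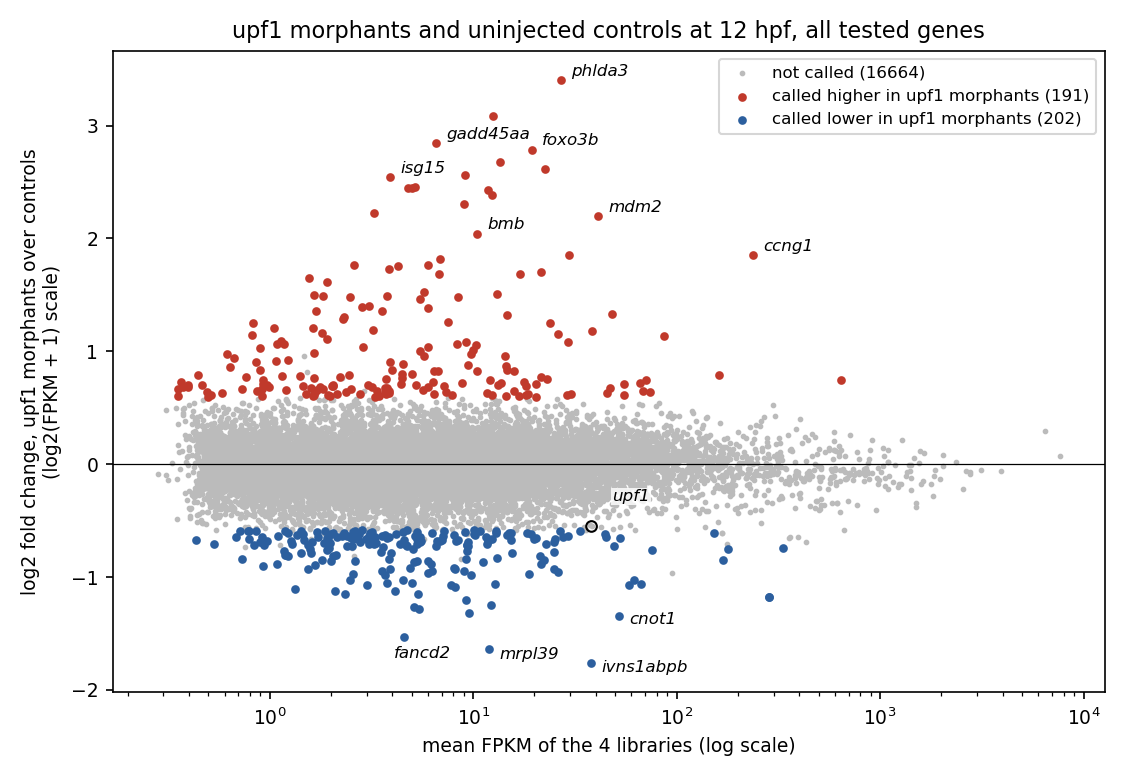
Log2 fold change of each tested gene (upf1 morphants over controls, on the log2(FPKM + 1) scale) against its mean FPKM over the 4 libraries on a log axis. Red points are the 191 genes called higher, blue points the 202 called lower, grey points were not called, and the open circle marks upf1 itself at -0.55. The largest rise is that of phlda3 at 3.40 and the largest fall that of ivns1abpb at -1.76.

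The targeted transcript upf1 (ENSDARG00000016302) stood at 30.3 and 31.3 FPKM in morphants and at 45.2 and 45.9 FPKM in controls. Both morphant libraries thus lay below both control libraries. The log2 fold change was -0.55 (standard error 0.04, adjusted p = 0.00104 from limma), which passed the test but stayed under the 1.5-fold threshold. It ranged from -0.58 to -0.53 over 13 other ways of running the test and was called in none of them. A splice-blocking morpholino alters the structure of the transcript, so the level of the mRNA is not a measure of the Upf1 protein that was left.

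The other NMD and EJC factors leaned upward by small amounts. Of 21 tested members, none was called, 10 passed as higher (47.6%), where 11.2% of all genes did, and upf1 alone passed as lower, with a median log2 fold change of 0.15. The kinase smg1, which phosphorylates Upf1, stood at 52.7 and 50.6 FPKM in morphants and at 39.2 and 38.4 FPKM in controls (log2 fold change 0.40). The endonuclease smg6 stood at 15.7 and 15.6 FPKM in morphants and at 11.6 and 11.2 FPKM in controls (0.42). Both groups were tight for these genes, with no overlap. The Smg1 cofactor smg9 and the bridging factor upf3b passed as well, at 0.34 and 0.38, as did smg5 (0.19), whose product binds phosphorylated Upf1. All core EJC genes passed as higher by less than 1.5-fold, with log2 fold changes of 0.32 for magoh, 0.25 for eif4a3 and 0.16 for rbm8a. So did casc3 (0.15), which is on the list but not among the core genes named above. Among release factor genes, etf1b passed as higher (0.17), while gspt1 (0.21) and gspt1l (0.15) did not pass. Nor did smg8 (0.06) or dhx34 (0.14).

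**Figure D2:**
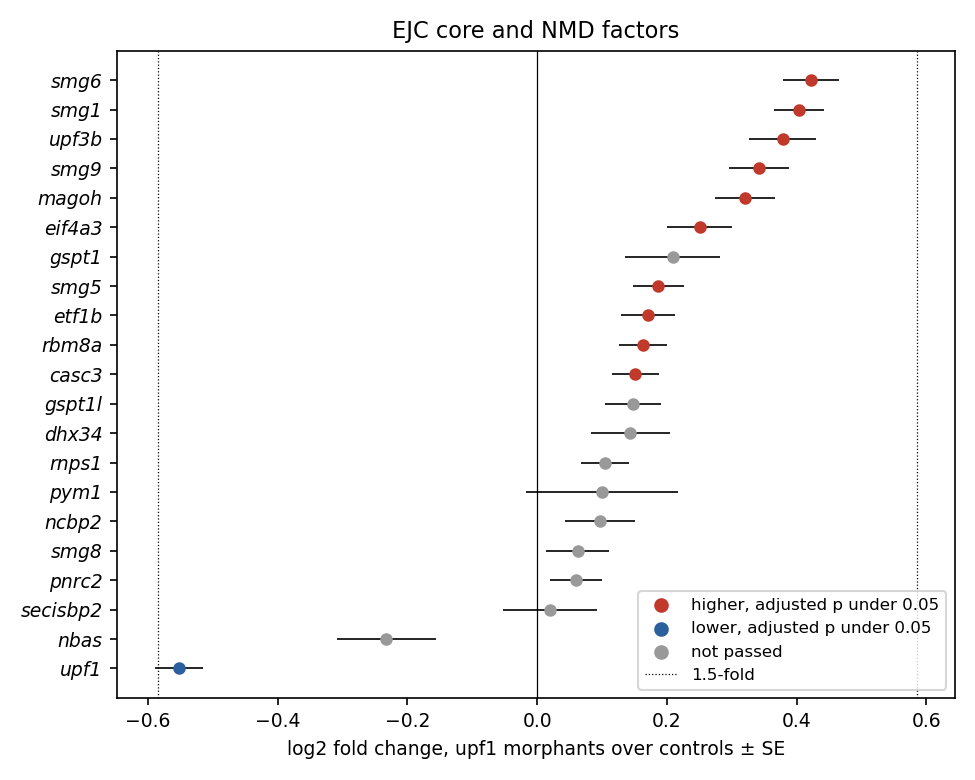
Log2 fold change with its standard error for the 21 tested EJC core and NMD factors, upf1 morphants over controls (2 libraries each). Red points passed as higher, the blue point (upf1, -0.55) passed as lower, grey points did not pass, and dotted lines mark 1.5-fold, which no member crosses.

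Transcripts that the study names as known, predicted or possible NMD targets, called NMD targets here, made up 5 of the 10 largest rises. For phlda3 and nupr1a, which have an intron shortly after the stop codon, the study raises regulation by NMD only as a possibility. Of 14 named genes, 11 were called higher (78.6%, against 1.12% of all genes) and none lower. Among these 11, isg15 and atxn1b reached the tested level through the morphant libraries alone, and the other called members number 9. The study chose part of them on these libraries, so their direction is not independent evidence. The pleckstrin homology domain gene phlda3, an inhibitor of Akt signaling, had the largest rise of all tested genes on the log2(FPKM + 1) scale. It stood at 46.1 and 53.8 FPKM in morphants, against 3.60 and 3.998 FPKM in controls, a 13.1-fold difference of the means (log2 fold change 3.40, standard error 0.08). By the ratio of the means, genes of lower level such as gadd45aa and isg15 rose further. The growth arrest gene gadd45aa stood at 10.6 and 13.9 FPKM in morphants and at 0.787 and 0.888 FPKM in controls (14.7-fold). The forkhead transcription factor gene foxo3b stood at 29.2 and 40.1 FPKM in morphants and at 3.80 and 4.41 FPKM in controls (8.43-fold). All of these genes were low in both control libraries and well above that in both morphant libraries, and for foxo3b the morphant libraries differed from each other by more than the controls did.

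The ubiquitin-like gene isg15 stood at 5.91 and 8.81 FPKM in morphants and at 0.456 and 0.368 FPKM in controls (17.8-fold). The ataxin gene atxn1b stood at 2.504 and 3.28 FPKM in morphants and at 0.219 and 0.257 FPKM in controls (12.2-fold). Its log2 fold change of 1.65 is smaller than this ratio implies, because 1 FPKM was added before the logarithm. The stress gene nupr1a (ENSDARG00000094300, listed under another symbol in the table) stood at 44.7 and 49.4 FPKM in morphants and at 11.6 and 13.0 FPKM in controls (3.83-fold). The paralog of phlda3, phlda2, was 3.98-fold higher and gtpbp1l, a GTP-binding protein gene, 2.71-fold higher. Nearest to the threshold were upb1, which encodes the last enzyme of pyrimidine breakdown (1.96-fold), and cdkn1ba, which encodes an inhibitor of cyclin-dependent kinases (1.61-fold). On the log2(FPKM + 1) scale, upb1 fell short of the threshold without morphant replicate 2 (log2 fold change 0.57). So did cdkn1ba without control replicate 2 (0.58). The splicing factor genes srsf3a (-0.10, adjusted p = 0.21 from limma) and srsf7a (-0.03, adjusted p = 0.60) and the helicase gene eif4a2 (0.10, adjusted p = 0.15), also named in the study, did not pass. The kinase regulator gene mob4 is named in the study as the reference transcript of its zebrafish quantitative RT-PCR, not as a target. It passed as higher at 1.19-fold (50.3 and 47.5 FPKM in morphants, 41.9 and 40.6 FPKM in controls).

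Stressed cells turn on genes that halt the cell cycle and genes that promote apoptosis. Genes of both kinds were among those called higher in morphants. Of 31 tested growth arrest and apoptosis genes, 12 were called higher (38.7%, against 1.12% of all genes) and none lower, and the median log2 fold change was 0.29. Part of the list was named by the study from these embryos and others, and gadd45aa, phlda3 and bbc3 belong to both this list and the NMD targets. The ubiquitin ligase gene mdm2 stood at 62.7 and 74.2 FPKM in morphants and at 13.8 and 14.4 FPKM in controls (4.86-fold). The related gene mdm4 went the other way by less than 1.5-fold, at 7.17 and 6.92 FPKM in morphants and 8.61 and 8.87 FPKM in controls (log2 fold change -0.28).

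Among arrest genes, ccng1 (cyclin G1) was the most abundant of the called members, at 348 and 395 FPKM in morphants and 94.2 and 110 FPKM in controls (3.64-fold). The cyclin-dependent kinase inhibitor gene cdkn1a, which encodes p21, stood at 19.9 and 21.2 FPKM in morphants and at 2.44 and 3.67 FPKM in controls (log2 fold change 2.43). The gap between the groups was several times the spread within either. The pocket protein gene rbl2, which encodes a partner of E2F factors that holds cells out of the cycle, is not on this list. It is named because it was among the 10 largest rises, at 6.92 and 10.6 FPKM in morphants and 0.644 and 0.879 FPKM in controls (11.5-fold). The sestrin genes sesn3 (log2 fold change 1.33) and sesn1 (0.75), which restrain growth signaling, were called higher, while sesn2 did not pass (0.17). Of the DNA repair genes on the list, ddb2 (-0.14) and rrm2b (-0.13) did not pass.

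The apoptosis genes called higher encode an initiator caspase and proapoptotic BCL2 family members. Of 29 tested caspases, BCL2 family members and their regulators, 4 were called higher (13.8%, against 1.12% of all genes) and none lower. At any fold, 8 passed as higher (27.6%, against 11.2% of all genes) and 3 as lower (10.3%, against 12.8%). The initiator caspase gene casp8 stood at 13.8 and 18.8 FPKM in morphants and at 1.78 and 2.02 FPKM in controls (8.58-fold). The BH3-only gene bbc3, which encodes Puma, stood at 8.26 and 10.7 FPKM in morphants and at 0.953 and 0.847 FPKM in controls (10.5-fold). The other called members were pmaip1, which encodes Noxa (3.48-fold), and baxa, which encodes the pore-forming Bax (2.33-fold, 51.1 and 56.7 FPKM in morphants, 23.3 and 23.0 FPKM in controls). The executioner caspase gene casp3a (0.07) and the apoptosome gene apaf1 (-0.02) did not pass. Of the other caspase genes, casp6l1 passed as higher (0.43) and casp2 as lower (-0.30), both by less than 1.5-fold. The survival genes mcl1a (0.48), bcl2l10 (0.33) and birc2 (0.23) passed as higher by less than 1.5-fold. The mcl1a paralog mcl1b (-0.34) and the proapoptotic gene bmf1 (-0.42) passed as lower by less than 1.5-fold.

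In all 12 called growth arrest and apoptosis genes, morphant replicate 2 was above morphant replicate 1, with a median ratio of 1.22. Over all genes called higher this held in 145 of 191 (75.9%), and over all tested genes in 48.8%. Control replicate 2 was above control replicate 1 in 10 of the 12. The morphant libraries thus differ in how far these genes rose, by less than they differ from the controls.

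**Figure D3:**
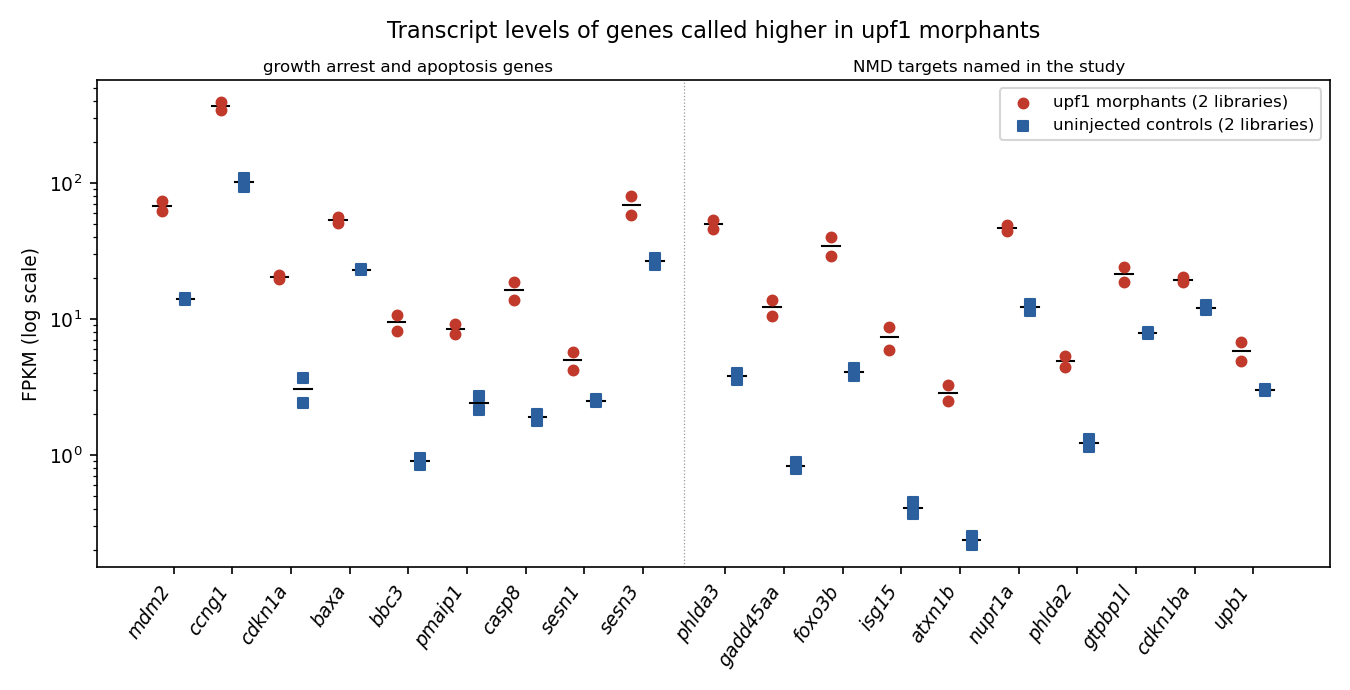
FPKM (log axis) of growth arrest and apoptosis genes and of known, predicted or possible NMD targets named in the study that were called higher. Red circles are the 2 upf1 morphant libraries, blue squares the 2 uninjected control libraries, and black bars the means. For each gene both morphant libraries lie above both controls, for example baxa at 51.1 and 56.7 against 23.3 and 23.0 FPKM and isg15 at 5.91 and 8.81 against 0.456 and 0.368 FPKM.

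Other large rises fell outside these lists. An uncharacterized gene, si:dkey-204l11.1, stood at 21.6 and 24.7 FPKM in morphants and at 1.64 and 2.06 FPKM in controls (12.5-fold). The ubiquitin ligase gene RNF14, named here from its gene identifier (ENSDARG00000078683), stood at 19.4 and 28.8 FPKM in morphants and at 2.80 and 2.91 FPKM in controls (8.45-fold). A further uncharacterized gene, si:dkey-27j5.3, stood at 40.3 and 38.7 FPKM in morphants and at 5.25 and 5.98 FPKM in controls (7.03-fold). Among all 2369 tested genes with a placeholder name of this kind, 30 were called higher (1.27%) and 17 lower (0.718%), close to the shares of all genes.

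Lists of other stress responses held few called genes, some at shares above that of all genes. The immediate early genes, which are induced within minutes of many stimuli, had 3 of 33 tested members called higher (9.09%, against 1.12% of all genes), 9 passing as higher (27.3%, against 11.2%) and 1 as lower. The AP-1 subunit gene fosab stood at 8.08 and 10.3 FPKM in morphants and at 0.935 and 0.793 FPKM in controls (10.6-fold). The Myc gene mycb was 2.30-fold higher (35.3 and 37.8 FPKM in morphants, 15.6 and 16.1 FPKM in controls) and jun 1.58-fold higher. Without morphant replicate 2, jun was no longer called (log2 fold change 0.57). In the integrated stress response, phosphorylated eIF2α favors translation of Atf4. Of its 32 tested genes, 2 were called higher (6.25%, against 1.12% of all genes) and none lower. These were chac1, a glutathione-degrading enzyme (1.67-fold), and slc3a2b, a subunit of amino acid transporters (1.55-fold). With a pseudocount of 0.1 or 0.5, or with limma-voom, 4 were called higher. At any fold, 11 of the 32 passed as higher (34.4%, against 11.2% of all genes) and 4 as lower (12.5%, against 12.8%). The transcripts of atf4a (0.35) and atf4b (0.28) passed as higher by less than 1.5-fold. None of 23 cytosolic heat shock genes was called, with 5 passing in each direction (21.7% each, against 11.2% higher and 12.8% lower of all genes).

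Of 28 measured genes of the interferon response, 15 lay below the level tested, with a highest FPKM of 0.46. Of the 13 tested, isg15, ifit8 and isg20 were called higher (23.1%, against 1.12% of all genes). Of these, isg15 and ifit8 reached the tested level through the morphant libraries alone. The third was the exonuclease gene isg20 (38.8 and 41.8 FPKM in morphants, 18.7 and 18.3 FPKM in controls, 2.18-fold). The level of ifit8 was low, at 0.634 and 0.780 FPKM in morphants and 0 and 0.0579 FPKM in controls. The transcription factors of the response did not pass, with stat1a at -0.14, stat2 at -0.12 and irf7 at 0.00.

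Chaperones of the endoplasmic reticulum, which fold secreted proteins and are induced together when unfolded proteins build up, were lower in morphants. Of 24 tested genes, 19 passed as lower (79.2%, against 12.8% of all genes), none passed as higher, and the median log2 fold change was -0.27. Of the list, 8.33% were called lower, against 1.18% of all genes. Only the calreticulin genes calr3a (40.8 and 40.5 FPKM in morphants, 67.6 and 61.5 FPKM in controls, 0.630-fold) and calr (0.608-fold) were called, and neither was called without control replicate 1 (log2 fold change -0.58 each). The Hsp70 family chaperone hspa5 stood at 138 and 135 FPKM in morphants and at 182 and 171 FPKM in controls (-0.37). The transcription factor gene xbp1, which drives these genes, passed as lower by less than 1.5-fold (-0.27).

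Genes of growth signaling and mRNA decay gave few calls. The growth factor gene igf2a stood at 18.7 and 20.9 FPKM in morphants and at 6.08 and 6.48 FPKM in controls (3.15-fold), while its paralog igf2b did not pass (-0.21). The binding protein gene igfbp2a, whose product holds insulin-like growth factors in solution, was called lower at 0.491-fold, but not without control replicate 1 (log2 fold change -0.54). Of the 29 tested genes of foxo and insulin-like signaling these and foxo3b were the only calls, with 2 called lower without morphant replicate 2. With all 4 libraries the shares called were 6.90% higher and 3.45% lower, against 1.12% and 1.18% of all genes. The foxo3b paralog foxo3a passed at 0.16, a difference of under 1.5-fold, and foxo1b (0.30) and foxo4 (-0.03) did not pass.

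Within mRNA decay, cnot1 encodes the scaffold of the CCR4-NOT deadenylase, which shortens poly(A) tails. It stood at 28.3 and 29.6 FPKM in morphants and at 74.5 and 75.7 FPKM in controls (0.385-fold, log2 fold change -1.35, standard error 0.04). The adaptor gene tob1a, whose product recruits the deadenylase, was called higher at 1.61-fold. The shares of decay genes called were 2.27% in each direction, against 1.12% higher and 1.18% lower of all genes. None of the other members among 44 tested decay genes was called, although the nuclear exonuclease gene xrn2 came close, at 42.3 and 43.0 FPKM in morphants and 61.9 and 64.7 FPKM in controls (-0.56), and 2 decay genes were called lower without control replicate 1. Among 39 SR proteins and splicing regulators, srsf10a and rbm39a were called higher (5.13%, against 1.12% of all genes), both at 1.57-fold. Their paralogs srsf10b and rbm39b passed as lower, both at -0.30. Without morphant replicate 1, rbm39a was not called (log2 fold change 0.57). Of 13 polyamine genes, azin1a alone was called higher (7.69%, against 1.12% of all genes), at 2.35-fold. It encodes an antizyme inhibitor that spares ornithine decarboxylase from breakdown. The antizyme gene oaz1b passed as lower at -0.22, while the antizyme genes oaz1a (0.05) and oaz2a (-0.16) did not pass. At any fold, 4 polyamine genes passed as higher (30.8%, against 11.2% of all genes) and 1 as lower (7.69%, against 12.8%).

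The 3 largest falls were those of ivns1abpb, mrpl39 and fancd2. The kelch domain gene ivns1abpb stood at 16.2 and 17.2 FPKM in morphants and at 59.1 and 58.9 FPKM in controls (0.283-fold, log2 fold change -1.76, standard error 0.04). The mitochondrial ribosomal protein gene mrpl39 stood at 5.25 and 5.31 FPKM in morphants and at 18.5 and 18.6 FPKM in controls (0.285-fold). The DNA crosslink repair gene fancd2 stood at 1.81 and 1.90 FPKM in morphants and at 7.37 and 7.18 FPKM in controls (0.256-fold). Each of these genes differed between the groups by many times the spread within a group. The collapsin response mediator gene dpysl2b was 0.390-fold, the uncharacterized gene si:ch211-208h16.4 0.388-fold and the unnamed gene ENSDARG00000102907 0.340-fold. Of the remaining genes among the 10 largest falls, 3 have no name in the sources used here and exon lengths of 154 bases or less, where FPKM rests on few positions and reads of a neighboring or near-identical gene may be shared, so they are not described.

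The families of mrpl39 and fancd2 were added as lists after these values were seen. Of 73 mitochondrial ribosomal protein genes, 32 passed as higher (43.8%, against 11.2% of all genes) and mrpl39 alone passed as lower, with a median of 0.16. An example is mrps26, at 13.6 and 14.5 FPKM in morphants and 9.89 and 10.2 FPKM in controls (0.45). Of 14 Fanconi anemia genes, 4 passed as lower (28.6%, against 12.8% of all genes). Besides fancd2 these were its partner fanci (-0.42), brip1 (-0.36) and brca2 (-0.26), none of which was called.

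Markers of embryonic cell types were detected for each of 10 cell groups. Of 44 marker genes found, 3 stayed under 1 FPKM in all libraries. Among 42 tested, 1 was called higher and 4 lower, where 1.12% of all genes were called higher and 1.18% lower. The summed level of the enveloping layer and epidermis markers was 7077 and 6498 FPKM in morphants and 6920 and 6752 FPKM in controls. Paraxial mesoderm and somite markers summed to 352 and 349 FPKM in morphants and to 300 and 296 FPKM in controls, and neural plate markers to 300 and 288 FPKM in morphants and to 353 and 338 FPKM in controls. Blood and vessel markers summed to 27.9 and 29.2 FPKM in morphants and to 44.5 and 42.1 FPKM in controls. In whole embryos, fewer cells of a type and less RNA per cell cannot be told apart.

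Genes of the neural plate and of early neurons passed more often as lower than as higher. Of 51 tested members, 6 were called lower (11.8%, against 1.18% of all genes) and none higher, and 19 passed as lower (37.3%, against 12.8%) with 6 passing as higher (11.8%, against 11.2%). The median log2 fold change was -0.12. The midbrain gene eng2b stood at 1.72 and 1.48 FPKM in morphants and at 4.52 and 4.37 FPKM in controls (0.360-fold). The eye field gene rx2 stood at 1.15 and 0.726 FPKM in morphants and at 3.86 and 2.60 FPKM in controls (0.290-fold), with the widest spread of the 6 called neural genes. The eye and forebrain gene pax6a stood at 6.66 and 6.94 FPKM in morphants and at 12.1 and 11.4 FPKM in controls (0.577-fold). The other called members were the proneural gene ascl1b (0.495-fold), the midbrain-hindbrain gene pax2b (0.337-fold), which reached the tested level through the control libraries alone, and the forebrain gene six3a (0.587-fold), of which six3a was not called without control replicate 1 (log2 fold change -0.58). The neuronal genes elavl3 (-0.30), neurog1 (-0.25) and isl1 (-0.33) passed as lower by less than 1.5-fold. The hindbrain and midbrain boundary genes gbx2 (0.34) and pax8 (0.33) passed as higher.

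Several genes of the contractile apparatus were lower in morphants. Of 27 tested early muscle genes, 5 were called lower (18.5%, against 1.18% of all genes) and none higher, 9 passed as lower (33.3%, against 12.8%) and 3 as higher (11.1%, against 11.2%), and the median log2 fold change was -0.06. The slow myosin gene smyhc1 stood at 2.65 and 3.18 FPKM in morphants and at 7.27 and 6.89 FPKM in controls (0.411-fold). The troponin gene tnnc2 was 0.448-fold, the actin genes acta1a and actc1b were 0.622-fold and 0.620-fold, and the tropomyosin gene tpma was 0.621-fold. Without morphant replicate 1, acta1a (log2 fold change -0.51) and actc1b (-0.54) were not called and 3 members remained. Reads of actin paralogs are nearly identical, so their split between genes is uncertain. The regulator of muscle fate myod1 stood at 15.8 and 16.2 FPKM in morphants and at 15.6 and 16.4 FPKM in controls (0.00), and its relative myf5 at 28.2 and 30.6 FPKM in morphants and at 27.7 and 27.9 FPKM in controls (0.08), and neither passed. The later regulator myog was low, at 0.296 and 0.415 FPKM in morphants and 0.794 and 0.699 FPKM in controls, and passed as lower (-0.37). It reached the tested level through the control libraries alone, so it had to be lower to be tested at all.

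Blood and vessel precursors had 3 of 20 tested members called lower, where 1.18% of all genes were, and none higher, with 5 passing as lower (25.0%, against 12.8%), 2 as higher and a median log2 fold change of -0.02. The transcription factor genes lmo2 and tal1, which act together at the start of blood formation, stood lower in both morphant libraries. For lmo2 the levels were 5.16 and 5.46 FPKM in morphants and 11.5 and 10.6 FPKM in controls (0.481-fold). For tal1 they were 3.97 and 4.13 FPKM in morphants and 7.16 and 7.00 FPKM in controls (0.571-fold). The repressor gene gfi1aa was 0.437-fold, and the vessel regulator etv2 passed as lower by less than 1.5-fold (-0.42).

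Collagens, a list added after values were seen, were mostly lower. Of 27 tested genes, 7 were called lower (25.9%, against 1.18% of all genes) and 19 passed as lower (70.4%, against 12.8% of all genes), none passed as higher, and the median was -0.41. The basement membrane gene col4a6 stood at 11.4 and 13.3 FPKM in morphants and at 25.3 and 24.9 FPKM in controls (0.491-fold). The notochord sheath and cartilage gene col2a1a stood at 15.7 and 15.6 FPKM in morphants and at 30.8 and 27.4 FPKM in controls (0.539-fold), and its partner col9a2 was 0.410-fold. The fibrillar gene col5a2a was 0.522-fold. Of the called collagens, 4 were still called without morphant replicate 1. Notochord regulators did not fall with col2a1a, with noto passing as higher by less than 1.5-fold (0.31) and shha not passing (0.02). Of 15 tested tubulin genes, also listed afterwards, 3 were called lower, where 1.18% of all genes were, and none higher. Of the same list, 4 passed as lower (26.7%, against 12.8% of all genes) and 1 as higher (6.67%, against 11.2%). Those called lower included tuba1c (140 and 125 FPKM in morphants, 225 and 221 FPKM in controls, 0.595-fold) and tuba1b (0.589-fold), whose reads may be shared.

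**Figure D4:**
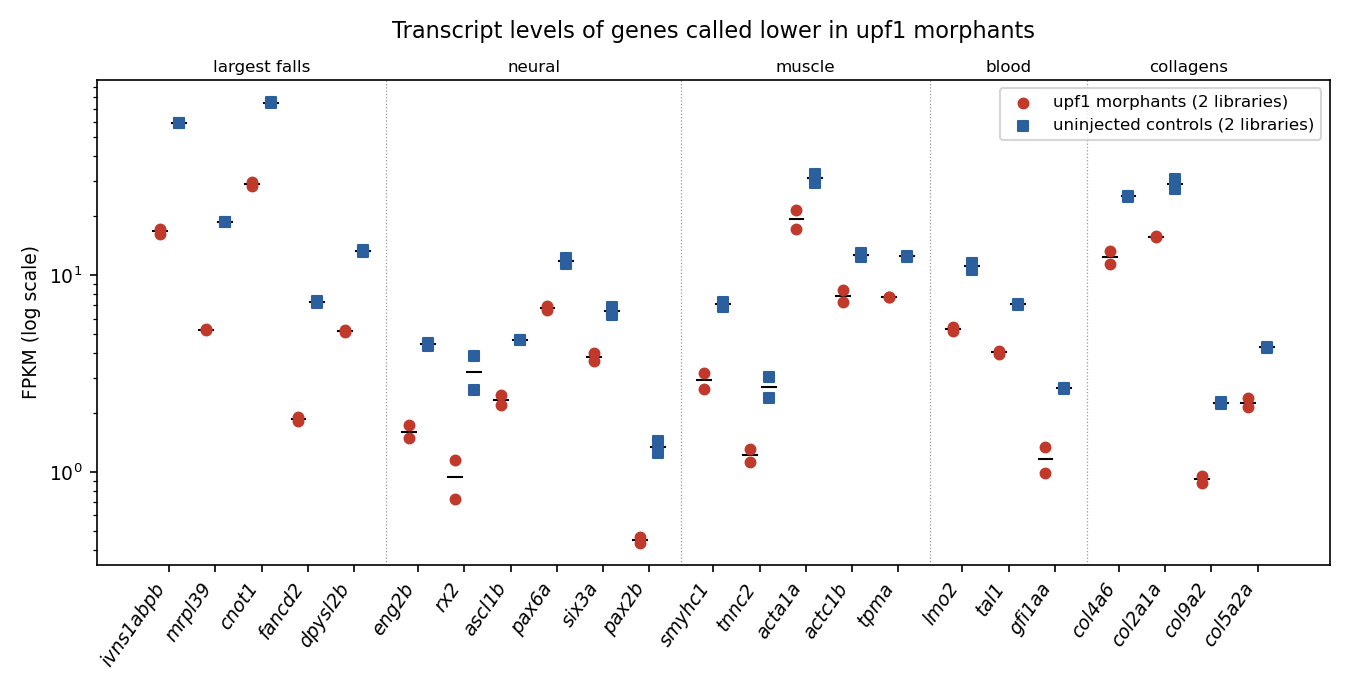
FPKM (log axis) of genes called lower, for 5 of the largest falls and for neural, muscle, blood and collagen genes. Red circles are the 2 upf1 morphant libraries, blue squares the 2 uninjected control libraries, and black bars the means. Both morphant libraries lie below both controls for each gene, for example lmo2 at 5.16 and 5.46 against 11.5 and 10.6 FPKM.

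Gastrula patterning genes, which act before the stage sampled, passed more often as higher than as lower. Of 34 gastrula patterning genes, none was called, 16 passed as higher (47.1%, against 11.2% of all genes), 2 passed as lower and the median was 0.15. The organizer gene gsc stood at 4.54 and 4.49 FPKM in morphants and at 2.91 and 3.13 FPKM in controls (0.46), and the Nodal inhibitor gene lft2 at 3.18 and 3.11 FPKM in morphants and 1.89 and 1.88 FPKM in controls (0.52). The list of notochord, floor plate and endoderm genes was split, with a median of 0.02. In each direction 2 of 29 tested members were called (6.90% each, against 1.12% higher and 1.18% lower of all genes). At any fold, 8 of its members passed as higher (27.6%, against 11.2%) and 7 as lower (24.1%, against 12.8%). Its members called higher were the endoderm regulators sox32 (2.46 and 2.59 FPKM in morphants, 0.663 and 0.902 FPKM in controls, 3.23-fold) and sox17 (2.22-fold), which act in the gastrula, and those called lower were col2a1a and col9a2. Of 24 germ cell and maternal genes, 2 were called higher (8.33%, against 1.12% of all genes), 6 passed as higher (25.0%, against 11.2%) and 1 as lower. The pluripotency factor gene pou5f3, abundant in early embryos, stood at 13.6 and 13.5 FPKM in morphants and at 7.22 and 7.23 FPKM in controls (1.88-fold). The maternal gene bmb, needed for fusion of the pronuclei, stood at 17.0 and 17.7 FPKM in morphants and at 3.02 and 3.91 FPKM in controls (5.00-fold). The germ cell gene ddx4 (0.17) and the maternal gene zar1 (0.04) did not pass. The part of developmental stage in these differences was not tested.

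The presomitic mesoderm, which forms the somites at this stage, had 15 of 39 tested genes passing as higher (38.5%, against 11.2% of all genes) and 4 as lower (10.3%, against 12.8%). The retinoic acid synthesis gene aldh1a2 was the only call (2.56%, against 1.12% of all genes), higher at 1.56-fold. It fell under the threshold without morphant replicate 2 (log2 fold change 0.56) or control replicate 1 (0.51). The clock genes her1 (0.24), her12 (0.43) and lfng (0.46) passed as higher by less than 1.5-fold. The clock gene her7 did not pass, at 14.1 and 15.4 FPKM in morphants and 14.1 and 15.4 FPKM in controls (-0.002). Nor did the somite genes mespaa (0.12) and ripply1 (0.11). In the ectoderm, foxi1, a regulator of ear placode and ionocyte fate, was called higher (18.6 and 19.9 FPKM in morphants, 8.86 and 9.93 FPKM in controls, 2.05-fold). It was the only call among 32 tested neural crest and placode genes (3.12%, against 1.12% of all genes). At any fold, 4 of these passed as higher (12.5%, against 11.2%) and 6 as lower (18.8%, against 12.8%), with a median of -0.08. The neural crest gene sox10 stood at 5.84 and 6.36 FPKM in morphants and at 9.80 and 9.34 FPKM in controls. It passed as lower just under the threshold on the log2(FPKM + 1) scale (-0.57). None of 33 epidermal genes and none of 8 hatching gland genes was called, although the hatching enzyme genes he1a (-0.57) and he1b (-0.58) came close. At any fold, 11 epidermal genes passed as lower (33.3%, against 12.8% of all genes) and 7 as higher (21.2%, against 11.2%). Of the hatching gland genes, 5 passed as lower (62.5%) and none as higher. Of 36 hox genes, only hoxd11a was called lower, at 0.496-fold (2.78%, against 1.18% of all genes). At any fold, 9 passed as lower (25.0%, against 12.8%) and 2 as higher (5.56%, against 11.2%). The log2 fold change of hoxd11a was -0.39 without morphant replicate 2 and -0.49 without control replicate 1, both no longer called. Nor was it called with no filter, quantile normalization, median centring or an untrended prior.

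Apart from the mitochondrial ribosomal proteins described above, the housekeeping families listed held a single called gene. None of 75 cytosolic ribosomal protein genes was called, 12 passed as lower (16.0%, against 12.8% of all genes) and none as higher, with a median of -0.10. Only 1 of the 75 had a log2 fold change above 0, against 8420 of all 17057 tested genes. Of 37 proteasome genes, 11 passed as higher (29.7%, against 11.2% of all genes) and 1 as lower (2.70%), with none called. None of 19 aminoacyl tRNA synthetase genes was called, 4 passed as lower (21.1%, against 12.8% of all genes) and none as higher, with a median of 0.01. Of 74 DNA replication and mitosis genes, 21 passed as lower (28.4%, against 12.8% of all genes) and 4 as higher (5.41%, against 11.2%). The condensin gene ncapd2 was the only call (34.5 and 35.5 FPKM in morphants, 54.3 and 56.4 FPKM in controls, 0.632-fold). The share of the list called lower, 1.35%, was near the 1.18% of all genes.

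**Figure D5:**
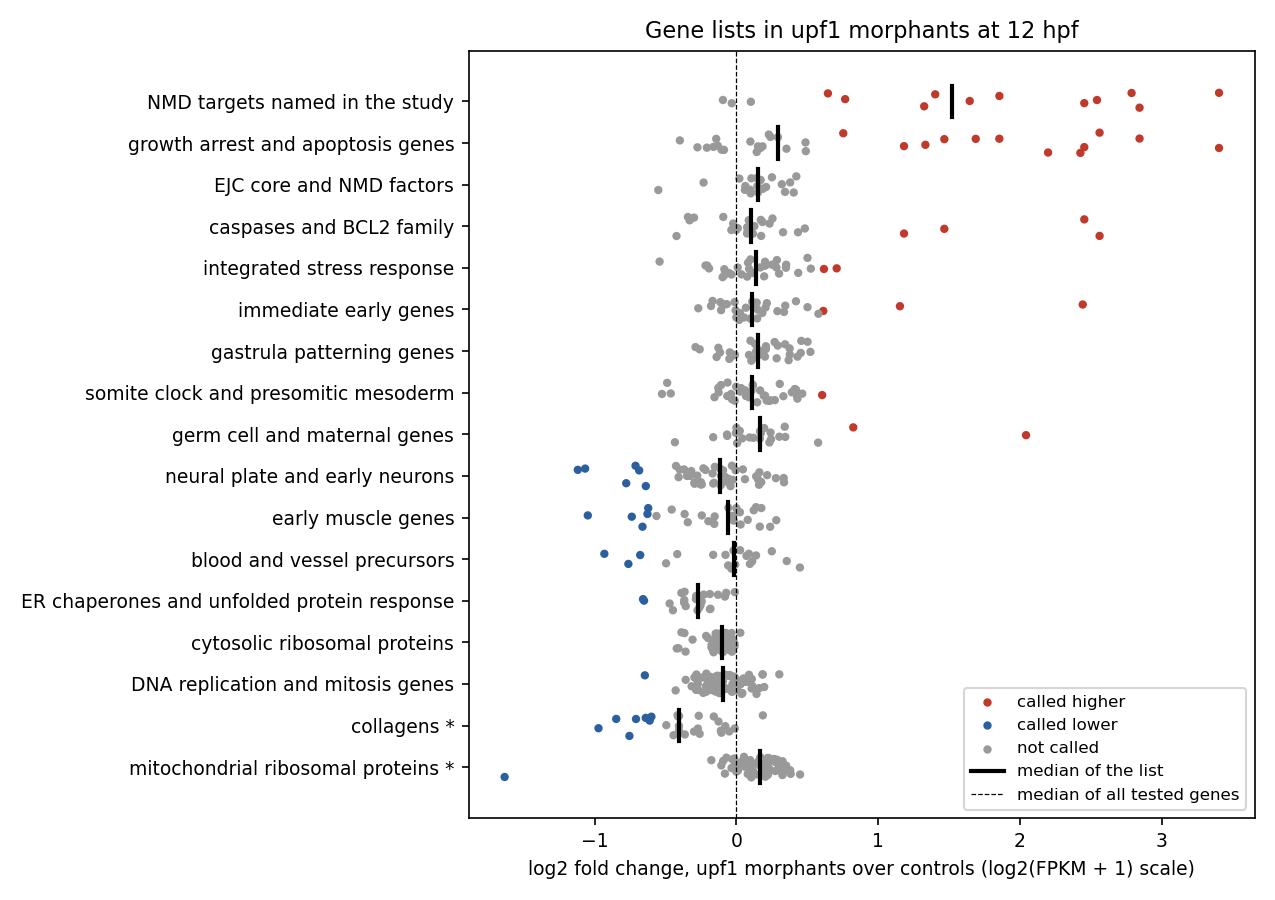
Log2 fold change of every tested member of 17 gene lists (upf1 morphants over controls, log2(FPKM + 1) scale). Red points were called higher, blue points lower and grey points not called. Black bars are the list medians, lowest for collagens at -0.41, and the dashed line is the median of all tested genes. Lists marked with an asterisk were added after values were seen.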

How the data were processed

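Per the labels and the study's methods, the authors mapped the reads to GRCz10 with TopHat2 (2.0.14), counted them per gene, removed genes without reads and used DESeq2 to scale the libraries and compute the FPKM deposited for each gene and library. The deposited mean of normalized counts is a signal averaged over the 4 libraries by the authors. It was used here only to recover whole reads and exon lengths. FPKM times that mean over the mean FPKM was divided by a step fitted for each library to its smallest values. The result lay within 0.05 of a whole number in 100% of values under 200 reads. The authors' fold change, standard error, statistic and p-value columns were not used. The labels do not mention strand marking, so overlapping and antisense genes cannot be told apart.

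Gene symbols are those of the table, and 4369 of the 7373 genes without a symbol were named from their identifiers. Genes reaching 0.5 FPKM in 2 or more libraries were fitted on the log2(FPKM + 1) scale in limma 3.58.1 (trended prior, group as the only term) in R 4.3.3, with Benjamini-Hochberg adjustment over all 17057 genes. With 2 libraries a group, 2 residual degrees of freedom stand behind each test, beside a prior of 4.07. The test was run on simulated data before use. Fold changes on the log2(FPKM + 1) scale understate those of low genes, so ratios of mean FPKM (morphants over controls) are given beside them.

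The 34 gene lists (4 added after values were seen) and the tests were chosen with earlier results of these data known. Named genes are upf1, genes the study names for NMD or cell death, the 10 largest rises and 10 largest falls among called genes whose groups did not overlap and whose mean was 1 FPKM or more, and up to 6 called members of each list in each direction. Other named members, such as cdkn1a and the sestrins, were chosen after their values were seen to describe their list. A few genes are not reported here. No sequences are shown. Alternatives were other pseudocounts and filters, quantile normalization, median centring, an untrended prior, a replicate block, limma-voom on recovered reads, no fold threshold and each library left out. Python 3.11.15 and matplotlib 3.10.9 were used for tables and figures.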

Additional observations from a re-analysis of the deposited data

How the results depend on the processing

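The number of calls depends on how low levels are treated. With a pseudocount of 0.1, 384 genes were called higher and 517 lower, with 0.5 the genes called lower rose to 339, and limma-voom on recovered reads called 422 higher and 610 lower. Of the 191 genes called higher, 184 were called with limma-voom, and of the 202 called lower, 196. Without the fold threshold, 1907 were higher and 2175 lower. Leaving out each library in turn gave 183 to 210 genes higher and 205 to 277 lower, and a log2 fold change of upf1 from -0.57 to -0.53. The replicate numbers are shared by name only, with 2 pairs. The deviations of same-numbered libraries had a correlation of 0.176 across genes, which does not establish a pairing, and with the replicate block 196 genes were called higher and 218 lower. With a pseudocount of 0.1, the early muscle genes had 8 members called lower, the collagens 11 and the immediate early genes 5 called higher, and limma-voom gave the same counts. None of the 82 named genes changed direction in any alternative. Of the 77 called, 63 were called without each library in turn and 62 in every alternative. The 2 residual degrees of freedom limit the test to differences that are large against the spread of both pairs.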
